A study of Mus musculus with 12 samples.

Results

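The data described here set the polarised states of Ptprz1 knockout macrophages directly against each other, as mouse bone marrow derived macrophages (BMDM) treated with lipopolysaccharide (LPS) and interferon gamma (IFNγ) and BMDM treated with interleukin 4 (IL-4). The members are 4 of the 12 RNA sequencing libraries of the series, chosen by their sample titles, with 2 libraries of LPS+IFNγ cells and 2 of IL-4 cells. All were of genotype PTPRZ_KO and came from bone marrow kept in M-CSF at 10 ng/mL over 6 days, a growth factor that turns marrow progenitors into macrophages. LPS+IFNγ cells, called M1 in the labels, had received 100 ng/mL LPS and 10 ng/mL IFNγ for 24 h. IL-4 cells, called M2 in the labels, had received 20 ng/mL IL-4 for 24 h. As references, 2 control libraries of KO cells without a stimulus were used, and the matching 6 libraries of PTPRZ_WT cells, whose titles begin with B6. The strain label, B6.129-Ptprz1tm1Nmo, is given for every library, WT included. The labels do not say whether the 2 libraries of a group stem from different animals or cultures. The p-values here cover no more than the spread between libraries of a group, shared over all 6 groups, WT included. That spread may be technical.

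PTPRZ is a receptor-type tyrosine phosphatase best known from the nervous system, where pleiotrophin and midkine are its ligands. Macrophages read LPS through Toll-like receptor 4 (TLR4) and NF-κB, and IFNγ through JAK kinases and STAT proteins, and the combination drives a microbe-killing, T cell-stimulating programme with nitric oxide from arginine as an effector. IL-4 acts through its own receptor and STAT6 and drives a programme of lectin receptors, chitinase-like proteins and arginase that is known from worm infection and tissue repair. Both programmes use arginine, which is why inducible nitric oxide synthase (Nos2) and arginase 1 (Arg1) are the field's usual pair of markers.

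Total counts were 18235634 and 13665607 in the LPS+IFNγ libraries, 16725932 and 19266309 in the IL-4 libraries and 19555600 and 18570930 in the control libraries. Levels are CPM, counts scaled to library size, after TMM scaling, and fold changes are log2 values ± standard error (SE) of LPS+IFNγ over IL-4, from edgeR's quasi-likelihood test on all 12 libraries, with Benjamini-Hochberg adjusted p-values over 13525 genes. A gene is called here when its adjusted p is under 0.05. TMM factors were 0.813 and 0.756 in LPS+IFNγ libraries, 1.09 and 1.1 in IL-4 libraries and 1.11 and 1.11 in control libraries. Libraries of the same KO group differed from each other more than libraries of the same WT group, with a chi-square per gene of 53.8 in LPS+IFNγ cells and 54.9 in IL-4 cells of the KO, against 7.81 and 15.6 in WT. Ptprz1 itself had 0 counts in all 6 KO libraries. It also had 0 counts in 5 of the 6 WT libraries and 7 counts in the other, so at this depth the transcript does not check the genotype labels.

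The cells carried macrophage transcripts in both states. Csf1r, the M-CSF receptor, had 1951 and 1370.4 CPM in LPS+IFNγ cells, against 1578 and 1237 CPM in IL-4 cells (log2 fold change 0.24 ± 0.22, adjusted p = 0.374). Lyz2, which encodes lysozyme, had 7144 and 6808 CPM in LPS+IFNγ cells, against 3986 and 6275 CPM in IL-4 cells (log2 fold change 0.44 ± 0.21, adjusted p = 0.107). Neither difference was called. The high-affinity IgG receptor Fcgr1 rose, at 1542 and 1749 CPM in LPS+IFNγ cells, against 25.7 and 23.7 CPM in IL-4 cells (log2 fold change 6.06 ± 0.35, adjusted p = 1.28e-06). Cd68, a lysosomal macrophage marker, fell, at 476 and 567 CPM in LPS+IFNγ cells, against 1273 and 672 CPM in IL-4 cells (log2 fold change -0.90 ± 0.26, adjusted p = 0.0145). Its call was lost without LPS+IFNγ library 1 (log2 fold change -0.79, adjusted p = 0.0830) and without IL-4 library 1 (log2 fold change -0.37, adjusted p = 0.118). Of 15 core macrophage genes, 9 rose and 3 fell, so that the marker list itself moved with the state.

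LPS+IFNγ and IL-4 cells differed in many genes. Of 13525 genes tested, 3614 rose in LPS+IFNγ relative to IL-4 (26.7%) and 3807 fell (28.1%), which makes 7421 called genes (54.9%). The median log2 fold change over all tested genes was -0.07. When the test asked for a change beyond 2-fold, 1451 genes rose (10.7%) and 1417 fell (10.5%). The main fit shares each gene's spread over all 6 groups, WT included. Fitted on the 6 KO libraries alone, the comparison called 5871 genes, and on its 4 libraries alone 5399. The split of calls depends on the TMM scaling. With total counts alone, 2114 genes rose and 6253 fell, and the median over all genes was -0.55. Small changes are therefore read against that shift of -0.48 on the log2 scale. Both libraries of LPS+IFNγ lay above both of IL-4 for 35.1% of tested genes and below them for 39.1%, before any test. The called shares of all tested genes, 26.7% higher, 28.1% lower and 54.9% in all, are the background for the counts of each list below.

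**Figure D1:**
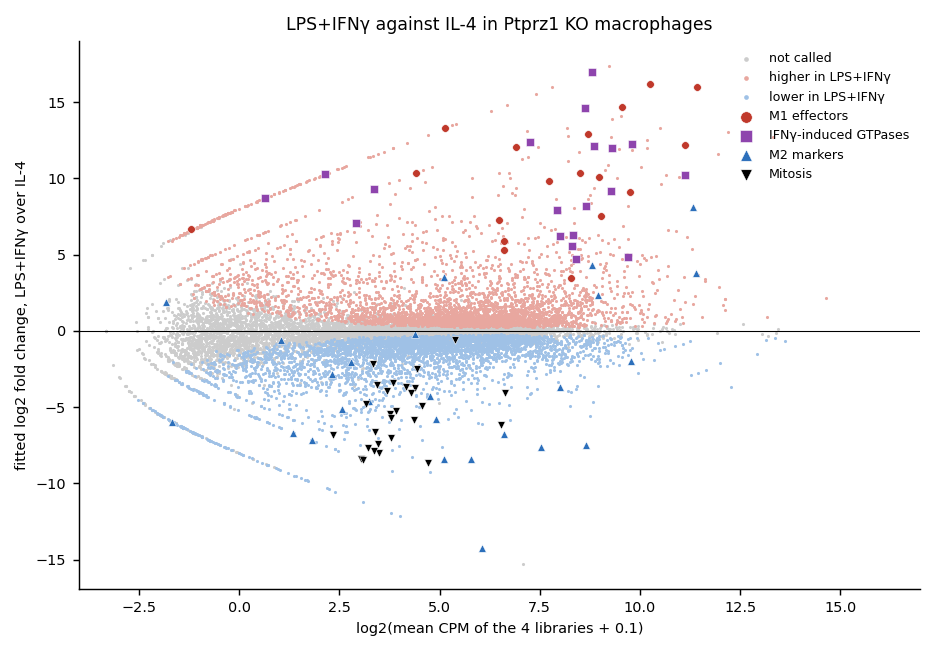
Fitted log2 fold change of LPS+IFNγ over IL-4 (vertical axis) against the log2 of the mean CPM of the 4 KO libraries plus 0.1 (horizontal axis), with each point a gene. M1 effectors and IFNγ-induced GTPases lie above 0, mitosis genes lie below it, and M2 markers lie on both sides.

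Among genes with at least 20 CPM in the higher state, most of the 10 largest increases were in genes known to be induced by interferon. Ifit1bl1, a relative of the antiviral IFIT proteins, had 834 and 1562 CPM in LPS+IFNγ cells, against 0 and 0 CPM in IL-4 cells (at least 7305-fold higher, adjusted p = 7.00e-07). Such bounds set 3 counts in the shallowest library of the state without a count. The guanylate-binding protein gene Gbp4 had 569 and 1219.6 CPM in LPS+IFNγ cells, against 0 and 0 CPM in IL-4 cells (at least 5454-fold higher, adjusted p = 2.38e-06). Slfn1, which encodes a Schlafen protein, had 398 and 492 CPM in LPS+IFNγ cells, against 0 and 0 CPM in IL-4 cells (at least 2715-fold higher, adjusted p = 1.15e-05). In each of these genes the IL-4 libraries held no count at all, while the LPS+IFNγ libraries held at least 398 CPM. Ifi208, an interferon-induced gene of the AIM2-like receptor family, had 205 and 467 CPM in LPS+IFNγ cells, against 0 and 0 CPM in IL-4 cells (at least 2050.2-fold higher, adjusted p = 9.50e-06). Cd69, an early activation antigen of leukocytes, had 135 and 274 CPM in LPS+IFNγ cells, against 0 and 0 CPM in IL-4 cells (at least 1246-fold higher, adjusted p = 1.19e-06). The other 5 of the 10 were Nos2, Cxcl9, Cxcl10, Cxcl11 and Iigp1.

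The 10 largest decreases held IL-4 markers and genes of dividing cells. Retnla (resistin-like molecule alpha), Mgl2 (a galactose-binding lectin) and Matk (a kinase of the Csk family) are on the M2 list and are described with it. Kntc1, a kinetochore protein gene, had 0 and 0 CPM in LPS+IFNγ cells, against 33.2 and 30.9 CPM in IL-4 cells (at least 110.4-fold lower, adjusted p = 3.45e-07). Pclaf, a partner of the replication clamp PCNA, had 0 and 0.194 CPM in LPS+IFNγ cells, against 58.8 and 48.2 CPM in IL-4 cells (667-fold lower, 95% counting interval 185 to 5515, adjusted p = 1.12e-06). Anln, the scaffold of the cleavage furrow, had 0.0675 and 0.194 CPM in LPS+IFNγ cells, against 49.6 and 29.5 CPM in IL-4 cells (326-fold lower, 95% counting interval 111 to 1581, adjusted p = 1.29e-06). Together, the LPS+IFNγ libraries held between 0 and 3 counts of each of these 3 genes, and where a state held 1 to 3 counts, the ratio of the counts of both libraries pooled, each over the state's TMM-scaled library size, is given with an interval that covers counting error only. Rasgrp3, a Ras activator, had 0 and 0 CPM in LPS+IFNγ cells, against 29.0 and 25.5 CPM in IL-4 cells (at least 93.9-fold lower, adjusted p = 1.42e-07).

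All 18 M1 effectors rose and 17 passed the 2-fold test, with a median log2 fold change of 9.94 when genes without a count in IL-4 cells are set at their lower bound. In all 18 both LPS+IFNγ libraries lay above both IL-4 libraries. Nos2 had 5123 and 5782 CPM in LPS+IFNγ cells, against 0.164 and 0 CPM in IL-4 cells (70870.4-fold higher, 95% counting interval 24250 to 343662, adjusted p = 1.63e-07). Acod1, which makes the antibacterial metabolite itaconate from a Krebs cycle intermediate, had 4659 and 4295 CPM in LPS+IFNγ cells, against 1.53 and 0.426 CPM in IL-4 cells (log2 fold change 12.19 ± 1.52, adjusted p = 1.16e-04). Fpr2, a receptor for formylated bacterial peptides, had 386 and 459 CPM in LPS+IFNγ cells, against 0.601 and 0.331 CPM in IL-4 cells (log2 fold change 9.83 ± 0.89, adjusted p = 1.54e-05). The LPS+IFNγ libraries lay close together for these 3 genes and farther apart for the cytokine genes. Il12b, the shared subunit of IL-12 and IL-23, had 62.1 and 421 CPM in LPS+IFNγ cells, against 0 and 0.0947 CPM in IL-4 cells (4131-fold higher, 95% counting interval 1143 to 34122, adjusted p = 2.45e-04). Il6 had 14.6 and 126 CPM in LPS+IFNγ cells, against 0 and 0 CPM in IL-4 cells (at least 428-fold higher, adjusted p = 7.40e-04). Il1b, the pro-form of interleukin 1β, had 505 and 1161 CPM in LPS+IFNγ cells, against 0.109 and 0.0947 CPM in IL-4 cells (log2 fold change 12.91 ± 1.35, adjusted p = 3.66e-05). Tnf, the tumour necrosis factor gene, had 124 and 255 CPM in LPS+IFNγ cells, against 6.01 and 3.46 CPM in IL-4 cells (log2 fold change 5.33 ± 0.38, adjusted p = 3.81e-06). Library 2 of LPS+IFNγ held more of each of these 4 cytokine transcripts than library 1, and neither IL-4 library reached library 1.

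Other M1 effectors were high in both LPS+IFNγ libraries too. Ptgs2, the inducible cyclooxygenase, had 427 and 1021 CPM in LPS+IFNγ cells, against 0.164 and 0.900 CPM in IL-4 cells (log2 fold change 10.34 ± 0.76, adjusted p = 4.24e-06). Marco, a scavenger receptor for bacteria, had 1423 and 1992 CPM in LPS+IFNγ cells, against 2.95 and 3.31 CPM in IL-4 cells (log2 fold change 9.08 ± 1.02, adjusted p = 5.92e-05). Socs3, a feedback inhibitor of cytokine signalling, had 802 and 1219 CPM in LPS+IFNγ cells, against 1.04 and 0.852 CPM in IL-4 cells (log2 fold change 10.06 ± 0.70, adjusted p = 3.08e-06).

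**Figure D2:**
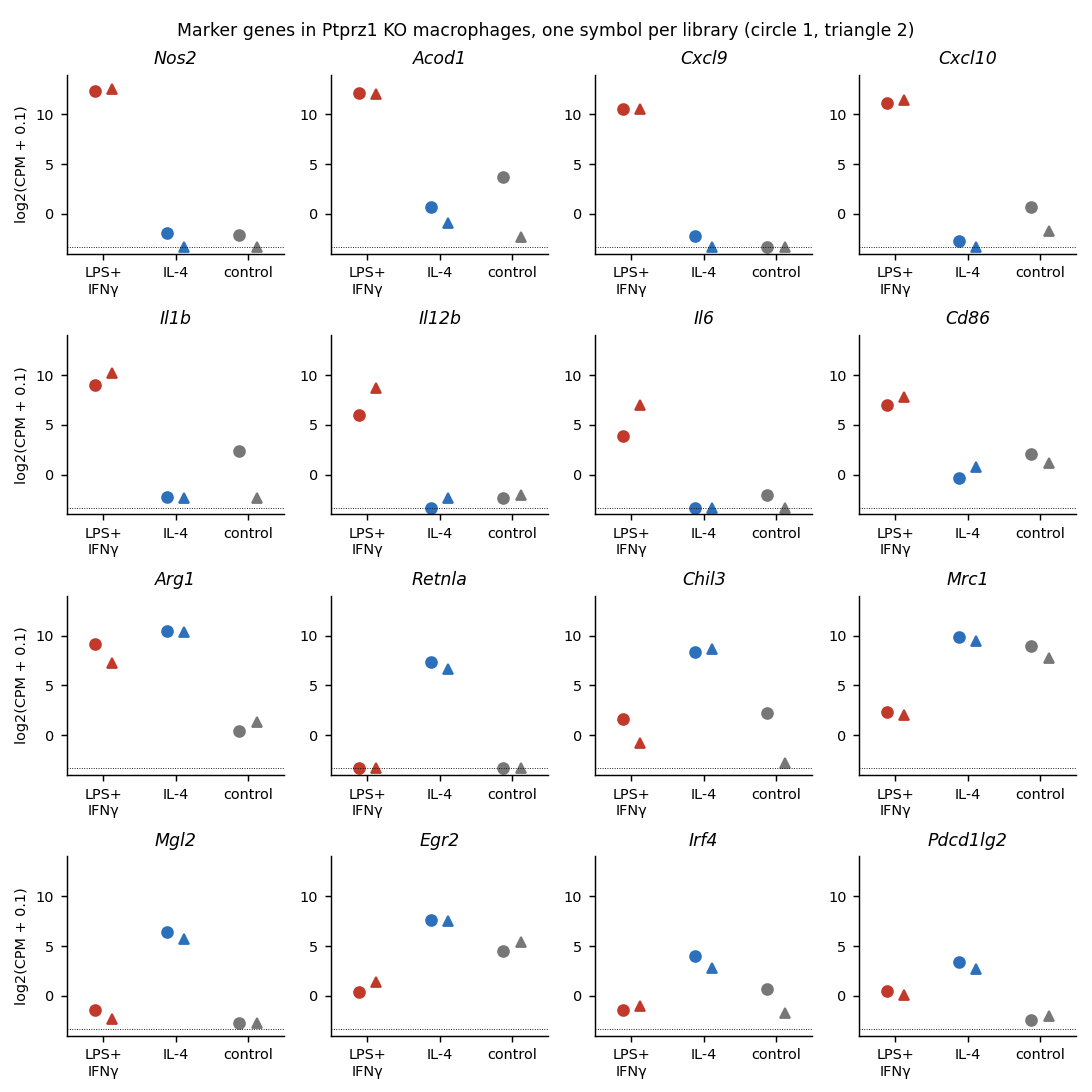
Levels of 16 marker genes as log2(CPM + 0.1) in Ptprz1 KO macrophages, with a symbol per library (circle for library 1, triangle for library 2), LPS+IFNγ in red, IL-4 in blue and control in grey; the dotted line is the value of a gene with no count. The upper 8 genes are high in LPS+IFNγ cells and at or near the line in IL-4 cells, except Acod1 and Cd86, which stay above it; of the lower 8, Arg1 is high in both polarised states and the others are highest in IL-4 cells.

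The M2 list split. Of its 25 tested genes 17 fell and 5 rose in LPS+IFNγ relative to IL-4, with 15 and 5 past 2-fold and a median log2 fold change of -3.69 with genes at 0 set at their bound. Retnla had 0 and 0 CPM in LPS+IFNγ cells, against 166 and 99.8 CPM in IL-4 cells (at least 458-fold lower, adjusted p = 2.76e-05) and 0 and 0 CPM in control cells. Chil3, the chitinase-like protein Ym1, had 3.04 and 0.484 CPM in LPS+IFNγ cells, against 334 and 406 CPM in IL-4 cells (log2 fold change -7.59 ± 0.97, adjusted p = 1.35e-04). Mgl2 had 0.270 and 0.0968 CPM in LPS+IFNγ cells, against 84.6 and 53.9 CPM in IL-4 cells (log2 fold change -8.40 ± 0.37, adjusted p = 3.88e-07). Mrc1, the mannose receptor, had 4.93 and 4.07 CPM in LPS+IFNγ cells, against 919.8 and 687 CPM in IL-4 cells (log2 fold change -7.47 ± 0.44, adjusted p = 1.28e-06). All 4 genes separate the states without overlap, but they do so from different control levels: Retnla and Mgl2 were at or near 0 in control cells, whereas Mrc1 had 487 and 213 CPM in control cells.

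Egr2 and Irf4, transcription factor genes of the M2 list, fell as well. Egr2 had 1.22 and 2.52 CPM in LPS+IFNγ cells, against 203 and 184 CPM in IL-4 cells (log2 fold change -6.76 ± 0.40, adjusted p = 1.43e-06). Irf4 had 0.270 and 0.387 CPM in LPS+IFNγ cells, against 15.5 and 6.96 CPM in IL-4 cells (log2 fold change -5.10 ± 0.78, adjusted p = 4.18e-04). Pdcd1lg2, which encodes the checkpoint ligand PD-L2, had 1.35 and 0.968 CPM in LPS+IFNγ cells, against 10.8 and 6.20 CPM in IL-4 cells (log2 fold change -2.85 ± 0.50, adjusted p = 0.00104). In each of these 3 genes both IL-4 libraries lay above both LPS+IFNγ libraries. Matk had 0.203 and 0.484 CPM in LPS+IFNγ cells, against 112 and 106 CPM in IL-4 cells (log2 fold change -8.38 ± 0.33, adjusted p = 2.19e-07). Myc, a growth regulator, had 2.43 and 3.0 CPM in LPS+IFNγ cells, against 50.9 and 52.0 CPM in IL-4 cells (log2 fold change -4.25 ± 0.42, adjusted p = 2.64e-05). The transferrin receptor gene Tfrc had 47.7 and 26.1 CPM in LPS+IFNγ cells, against 507 and 449 CPM in IL-4 cells (log2 fold change -3.69 ± 0.27, adjusted p = 4.26e-06).

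The sequences of 2 IL-4-side promoters are shown because IL-4 acts through STAT6, whose usual sites are palindromes of TTC and GAA. They are RefSeq promoters in the build GRCm38.p6, from 250 bases before to 50 after the start of transcription, with the matched motif in capitals. The authors' processing notes name GRCm39, and no coordinate was converted. The Retnla promoter (chr16:48842359-48842658, + strand) holds the STAT6-type spacing, TTC and GAA with any 4 bases between them, at positions -145 to -136 from the start. The Chil3 promoter (chr3:106167515-106167814, - strand) holds no such match but holds TTCNNNGAA, the gamma-activated spacing known from IFNγ targets, at -172 to -164. The Mgl2 promoter was searched as well, held none of the motifs searched and is not printed.
Retnla: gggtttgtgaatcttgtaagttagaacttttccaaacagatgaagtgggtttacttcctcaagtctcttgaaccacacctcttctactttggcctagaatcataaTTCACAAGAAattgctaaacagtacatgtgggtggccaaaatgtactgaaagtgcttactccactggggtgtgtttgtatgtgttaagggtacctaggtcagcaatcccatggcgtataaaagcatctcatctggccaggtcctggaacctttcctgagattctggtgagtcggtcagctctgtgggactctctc
Chil3: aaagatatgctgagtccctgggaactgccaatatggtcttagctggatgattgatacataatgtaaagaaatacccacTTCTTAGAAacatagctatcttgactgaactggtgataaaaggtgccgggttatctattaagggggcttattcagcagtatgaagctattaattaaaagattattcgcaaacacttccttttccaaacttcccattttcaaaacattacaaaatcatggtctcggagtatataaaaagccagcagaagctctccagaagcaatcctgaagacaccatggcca
The STAT6-type letters stood in promoters of 4 of the 19 M2 genes with a promoter (21.1%), against 8.01% of all 27025 genes with promoters of that length. Both strands were searched. A gene with several promoters counts once, as a match if any of them matched. The gamma-activated spacing stood in as many of the 19. Among genes that fell past 2-fold 7.18% held the STAT6-type letters, and among those that rose past 2-fold 7.76%. A match is a description of the letters and not a binding site.

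The 5 members of the M2 list that rose were higher in LPS+IFNγ than in IL-4 cells by wide margins. Il1rn, the interleukin 1 receptor antagonist, had 2847 and 7304 CPM in LPS+IFNγ cells, against 20.7 and 16.2 CPM in IL-4 cells (log2 fold change 8.10 ± 0.47, adjusted p = 1.23e-06). Il4ra, the IL-4 receptor chain itself, had 882 and 809 CPM in LPS+IFNγ cells, against 43.7 and 42.4 CPM in IL-4 cells (log2 fold change 4.29 ± 0.20, adjusted p = 4.80e-07). The other 3 called higher were Socs1, Slc7a2 and Tgm2, named after their values were seen, with log2 fold changes of 3.52, 3.78 and 2.36. Chemokines often used as M2 markers had few counts. Ccl22 had 2.36 and 0.678 CPM in LPS+IFNγ cells, against 4.75 and 0 CPM in IL-4 cells. Ccl24 had 0.473 and 0.0968 CPM in LPS+IFNγ cells, against 0.164 and 0 CPM in IL-4 cells. Ccl17, which did not pass the low-count filter, had no count in LPS+IFNγ libraries and 8 and 1 counts in IL-4 libraries. Neither Ccl22 nor Ccl24 was called (adjusted p = 0.723 and 0.311). The transcription factor gene Klf4 had 16.7 and 21.8 CPM in LPS+IFNγ cells, against 28.1 and 16.6 CPM in IL-4 cells and was not called (adjusted p = 0.519). It had 6.63 and 4.09 CPM in control cells, and each state was called higher than control (adjusted p = 5.36e-04 for LPS+IFNγ and 0.00436 for IL-4).

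Arg1 was higher than control in both states. It had 564 and 152 CPM in LPS+IFNγ cells, against 1454 and 1357 CPM in IL-4 cells, and 1.24 and 2.39 CPM in control cells (adjusted p = 2.14e-05 for LPS+IFNγ and 3.92e-04 for IL-4). Relative to IL-4 it fell in LPS+IFNγ cells (log2 fold change -1.97 ± 0.53, adjusted p = 0.0107). Library 2 of LPS+IFNγ held the lower level, and without library 1 the difference was larger (log2 fold change -3.22, adjusted p = 4.42e-04). In WT cells the same comparison gave a log2 fold change of -1.82 (adjusted p = 0.0150). 

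Of 20 arginine and polyamine genes, 6 rose and 11 fell. Besides Nos2, those that rose include Ass1. Ass1, which rebuilds arginine from citrulline, had 219 and 441 CPM in LPS+IFNγ cells, against 5.36 and 4.4 CPM in IL-4 cells (log2 fold change 6.08 ± 0.53, adjusted p = 1.20e-05). Arg2, the mitochondrial arginase, had 17.2 and 24.4 CPM in LPS+IFNγ cells, against 0.273 and 0.0473 CPM in IL-4 cells (log2 fold change 7.01 ± 0.75, adjusted p = 4.44e-05). The next 2 genes were named after their values were seen. The cationic amino acid carrier Slc7a2 had 2469 and 7517 CPM in LPS+IFNγ cells, against 332 and 395 CPM in IL-4 cells (log2 fold change 3.78 ± 0.51, adjusted p = 2.00e-04). Gch1, which starts the synthesis of the Nos2 cofactor tetrahydrobiopterin, had 66.1 and 95.2 CPM in LPS+IFNγ cells, against 12.6 and 12.1 CPM in IL-4 cells (log2 fold change 2.70 ± 0.23, adjusted p = 9.18e-06). Among those that fell, Prodh, proline dehydrogenase, had 0.405 and 0.290 CPM in LPS+IFNγ cells, against 5.41 and 6.25 CPM in IL-4 cells (log2 fold change -4.01 ± 0.35, adjusted p = 1.16e-05). The spermidine and spermine synthases Srm and Sms, named after their values were seen, fell too, with log2 fold changes of -2.63 and -2.04 (adjusted p = 8.78e-05 and 3.31e-06). Odc1, the entry enzyme of polyamine synthesis, was not called, at 38.2 and 70.7 CPM in LPS+IFNγ cells, against 46.2 and 73.9 CPM in IL-4 cells (adjusted p = 0.706).

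All 19 IFNγ-induced GTPases and all 26 type I interferon-stimulated genes rose, and all of them also passed the 2-fold test. The GTPases, guanylate-binding proteins and immunity-related GTPases that attack the vacuoles of intracellular microbes, had a median log2 fold change of 8.18 with genes at 0 set at their bound. Gbp5 had 1357 and 2242 CPM in LPS+IFNγ cells, against 0.437 and 0.284 CPM in IL-4 cells (log2 fold change 12.28 ± 0.61, adjusted p = 5.87e-07). Tgtp1, whose counts are uncertain because Tgtp2 is a near copy, had 179.7 and 431 CPM in LPS+IFNγ cells, against 0.109 and 0 CPM in IL-4 cells (5578-fold higher, 95% counting interval 1544 to 46072, adjusted p = 1.84e-06). Iigp1, an immunity-related GTPase, had 551 and 1035 CPM in LPS+IFNγ cells, against 0 and 0.0473 CPM in IL-4 cells (29560.2-fold higher, 95% counting interval 5305 to 1167630, adjusted p = 8.37e-07). Summed over the list, GTPase transcripts took 13280.5 and 20788 CPM in LPS+IFNγ cells, against 126 and 112 CPM in IL-4 cells and 311 and 156 CPM in control cells.

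The interferon-stimulated genes had a median of 8.91. Ifit1, whose protein binds viral RNA, had 1892 and 2704 CPM in LPS+IFNγ cells, against 0.547 and 0.237 CPM in IL-4 cells (log2 fold change 12.53 ± 1.07, adjusted p = 1.04e-05). Mx1, an antiviral GTPase gene, had 1399 and 1443 CPM in LPS+IFNγ cells, against 0.547 and 0.189 CPM in IL-4 cells (log2 fold change 11.93 ± 0.85, adjusted p = 3.52e-06). The interferon regulatory factor Irf7 had 3012 and 2840.1 CPM in LPS+IFNγ cells, against 4.65 and 2.70 CPM in IL-4 cells (log2 fold change 9.64 ± 1.01, adjusted p = 3.63e-05). Ifit3b had 148 and 436 CPM in LPS+IFNγ cells, against 0 and 0.0473 CPM in IL-4 cells (10484-fold higher, 95% counting interval 1881 to 414165, adjusted p = 3.63e-05). Ifi44 had 450.4 and 729 CPM in LPS+IFNγ cells, against 0 and 0.142 CPM in IL-4 cells (7421-fold higher, 95% counting interval 2539 to 35988, adjusted p = 7.22e-06). No IL-4 library overlapped an LPS+IFNγ library in these genes. The control libraries themselves were uneven for this list, with a summed level of 1422 and 485 CPM in libraries 1 and 2. The LPS+IFNγ libraries had 33805 and 43068 CPM, and the IL-4 libraries, at 401 and 377 CPM, lay below both control libraries.

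The element that these genes are known for, the interferon-stimulated response element (ISRE) bound by STAT and IRF complexes, has a short core. This core, GAAA repeated after any 2 bases (TTTC repeated likewise on the other strand), was searched on both strands of the promoters. It stood in promoters of 10 of the 11 GTPase genes with a promoter (90.9%). The same held for 12 of 19 genes of the interferon-stimulated list (63.2%), against 3.99% of all 27025 genes. Of genes that rose past 2-fold, 12.4% of the 1057 with a promoter held it, and of those that fell past 2-fold, 4.07% of 1031. The 30 bases around the match, with the match in capitals, are printed for 8 of the GTPase genes to set related genes beside each other. The position of the first and last base of the match, counted from the start of transcription, follows each name.
Gbp2 promoter, chr3 (+ strand), -59 to -50: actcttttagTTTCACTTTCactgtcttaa
Gbp2b promoter, chr3 (+ strand), -137 to -128: gtacttctaaTTTCACTTTCttctttatca
Gbp5 promoter, chr3 (+ strand), -165 to -156: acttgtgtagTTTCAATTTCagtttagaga
Gbp7 promoter, chr3 (+ strand), -53 to -44: gtgtgtgcagTTTCAGTTTCagttctccat
Irgm2 promoter, chr11 (+ strand), -64 to -55: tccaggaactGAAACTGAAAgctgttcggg
Igtp promoter, chr11 (+ strand), -34 to -25: tctaggaactGAAACTGAAAgctgttcggg
Tgtp1 promoter, chr11 (- strand), -77 to -68: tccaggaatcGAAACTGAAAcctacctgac
Tgtp2 promoter, chr11 (- strand), -70 to -61: tccaggaatcGAAACCGAAAcctactctga
Irgm2 with Igtp and Tgtp1 with Tgtp2 are pairs of close relatives, so their reads may be shared. The gamma-activated spacing TTCNNNGAA stood in promoters of 54.5% of the same 11 genes, against 9.55% of all 27025 genes.

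Irf1, an early target of IFNγ that encodes a transcription factor, had 505 and 634 CPM in LPS+IFNγ cells, against 66.3 and 35.9 CPM in IL-4 cells (log2 fold change 3.48 ± 0.32, adjusted p = 1.58e-05). Cxcl10, a chemokine for T cells, had 2188 and 2716 CPM in LPS+IFNγ cells, against 0.0547 and 0 CPM in IL-4 cells (94790.5-fold higher, 95% counting interval 17012 to 3744090, adjusted p = 7.32e-07). Their promoters are printed to show the motif each holds in this window. Irf1 has 2 such promoters, of which the first listed is printed. The Irf1 promoter (chr11:53769764-53770063, + strand) holds a gamma-activated spacing at -90 to -82, and the Cxcl10 promoter (chr5:92348840-92349139, - strand) an ISRE core at -213 to -204.
Irf1: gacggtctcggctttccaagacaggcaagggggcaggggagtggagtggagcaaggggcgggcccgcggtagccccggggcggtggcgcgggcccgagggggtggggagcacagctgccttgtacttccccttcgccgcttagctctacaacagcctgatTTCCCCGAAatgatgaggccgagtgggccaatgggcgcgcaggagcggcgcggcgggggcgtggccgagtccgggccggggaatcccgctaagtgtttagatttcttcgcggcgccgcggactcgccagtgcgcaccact
Cxcl10: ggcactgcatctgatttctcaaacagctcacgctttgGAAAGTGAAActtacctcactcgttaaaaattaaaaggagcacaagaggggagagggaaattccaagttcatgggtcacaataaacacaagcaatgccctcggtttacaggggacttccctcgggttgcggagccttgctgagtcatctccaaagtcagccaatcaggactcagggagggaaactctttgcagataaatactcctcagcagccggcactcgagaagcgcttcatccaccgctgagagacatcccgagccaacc
The Cxcl9 promoter held none of the motifs searched in this window. Cxcl9, another T cell chemokine, had 1473 and 1534 CPM in LPS+IFNγ cells, against 0.109 and 0 CPM in IL-4 cells (29526-fold higher, 95% counting interval 8173 to 243819, adjusted p = 1.11e-06). The NF-κB letters, GGG and TTTCC with any 2 bases between them, were in promoters of 3.97% of genes that rose past 2-fold and of 1.89% of all genes.

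Chemokine and cytokine genes rose for the most part. Of 23 chemokines tested, 15 rose and 2 fell. Ccl5, which draws T cells and monocytes, had 9751 and 9158 CPM in LPS+IFNγ cells, against 1.53 and 0.758 CPM in IL-4 cells (log2 fold change 13.03 ± 1.19, adjusted p = 1.57e-05). Cxcl11 had 133 and 178 CPM in LPS+IFNγ cells, against 0 and 0 CPM in IL-4 cells (at least 949.9-fold higher, adjusted p = 4.55e-06). Of the chemokines that fell, Ccl6 had 99.5 and 119 CPM in LPS+IFNγ cells, against 453 and 248 CPM in IL-4 cells (log2 fold change -1.68 ± 0.32, adjusted p = 0.00149). Cxcl14 had 13 and 14 CPM in LPS+IFNγ cells, against 46.1 and 109.8 CPM in IL-4 cells (log2 fold change -2.53 ± 0.51, adjusted p = 0.00213).

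Of 29 cytokines and growth factors, 23 rose and 2 fell. Those that fell encode growth factors. Igf1 had 32.5 and 35.7 CPM in LPS+IFNγ cells, against 971 and 776 CPM in IL-4 cells (log2 fold change -4.68 ± 0.18, adjusted p = 1.63e-07). Pdgfa had 4.52 and 3.58 CPM in LPS+IFNγ cells, against 52.3 and 53.7 CPM in IL-4 cells (log2 fold change -3.69 ± 0.23, adjusted p = 1.81e-06). Il19, of the interleukin 10 family, had 4.19 and 52.4 CPM in LPS+IFNγ cells, against 0 and 0 CPM in IL-4 cells (at least 172-fold higher, adjusted p = 0.00300), with library 2 far above library 1. Tgfb1 had 168 and 209 CPM in LPS+IFNγ cells, against 244 and 187 CPM in IL-4 cells and was not called (adjusted p = 0.297). Csf1, which encodes M-CSF, had 40.4 and 108 CPM in LPS+IFNγ cells, against 12.8 and 23.3 CPM in IL-4 cells and was not called either (adjusted p = 0.0613).

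Of 13 chemokine and chemoattractant receptors, 7 rose and 4 fell. The formyl peptide receptor Fpr1 had 596 and 835 CPM in LPS+IFNγ cells, against 0.328 and 0.0947 CPM in IL-4 cells (log2 fold change 11.73 ± 1.09, adjusted p = 1.82e-05). Ccrl2, a non-signalling receptor that presents chemerin, had 186 and 298 CPM in LPS+IFNγ cells, against 16.7 and 15.1 CPM in IL-4 cells (log2 fold change 3.93 ± 0.23, adjusted p = 1.20e-06). Ccr3, the eotaxin receptor, had 5.4 and 0.968 CPM in LPS+IFNγ cells, against 32.5 and 33.5 CPM in IL-4 cells (log2 fold change -3.29 ± 0.47, adjusted p = 2.84e-04), and without LPS+IFNγ library 1 the difference was larger (log2 fold change -5.09, adjusted p = 6.20e-06). Cx3cr1, the fractalkine receptor, was low in both states, at 0.945 and 0.0968 CPM in LPS+IFNγ cells, against 2.24 and 2.51 CPM in IL-4 cells, beside 77.9 and 49.3 CPM in control cells. Its difference between the states (log2 fold change -2.01 ± 0.61, adjusted p = 0.0190) was not called without LPS+IFNγ library 2 (log2 fold change -1.32, adjusted p = 0.0891) or without IL-4 library 2 (log2 fold change -1.93, adjusted p = 0.0674). Without LPS+IFNγ library 1 it was larger (log2 fold change -4.53, adjusted p = 0.00798).

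Genes of LPS sensing and NF-κB rose. Of 34 Toll-like receptor and NF-κB genes, 30 rose and 0 fell, with a median log2 fold change of 2.19. Nfkbia, which encodes the inhibitor IκBα, had 753 and 872 CPM in LPS+IFNγ cells, against 30.2 and 23.6 CPM in IL-4 cells (log2 fold change 4.92 ± 0.26, adjusted p = 7.00e-07). Nfkbiz, which encodes the nuclear cofactor IκBζ, had 125 and 202 CPM in LPS+IFNγ cells, against 3.06 and 2.23 CPM in IL-4 cells (log2 fold change 5.95 ± 0.53, adjusted p = 1.38e-05). Traf1, an adaptor of TNF receptors, had 269 and 275 CPM in LPS+IFNγ cells, against 1.42 and 0.758 CPM in IL-4 cells (log2 fold change 7.98 ± 0.36, adjusted p = 4.15e-07). Nod2, a sensor of bacterial cell wall, had 54.2 and 69.2 CPM in LPS+IFNγ cells, against 1.80 and 2.23 CPM in IL-4 cells (log2 fold change 4.93 ± 0.27, adjusted p = 9.26e-07). The LPS receptor gene Tlr4 was not called, at 121 and 71.8 CPM in LPS+IFNγ cells, against 166 and 126 CPM in IL-4 cells (log2 fold change -0.59 ± 0.23, adjusted p = 0.0536). Its partner Cd14 had 443 and 378 CPM in LPS+IFNγ cells, against 53.2 and 71.8 CPM in IL-4 cells (log2 fold change 2.72 ± 0.18, adjusted p = 2.41e-06). Cd14 had 342 and 267 CPM in control cells, so IL-4 cells stood below control (adjusted p = 3.35e-04) and LPS+IFNγ cells were not called against control (adjusted p = 0.0545). Under total-count scaling 26 of the 34 rose and 1 fell.

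Among 35 JAK, STAT, SOCS and IRF genes 22 rose and 7 fell. Socs3, Irf4 and Il4ra of this list are given above. Irf7 is given with the interferon-stimulated genes. Stat2, a transcription factor of interferon signalling that was named after its values were seen, had 1121 and 1259 CPM in LPS+IFNγ cells, against 41.4 and 32.0 CPM in IL-4 cells (log2 fold change 5.02 ± 0.33, adjusted p = 2.14e-06). Socs2, a cytokine-induced inhibitor, had 0.405 and 0.484 CPM in LPS+IFNγ cells, against 14.9 and 20.7 CPM in IL-4 cells (log2 fold change -5.32 ± 0.41, adjusted p = 5.40e-06). The dendritic cell factor Batf3 had 3.24 and 2.42 CPM in LPS+IFNγ cells, against 23.9 and 21.4 CPM in IL-4 cells (log2 fold change -2.98 ± 0.28, adjusted p = 1.74e-05). Its relative Batf2 had 59.3 and 103 CPM in LPS+IFNγ cells, against 1.91 and 1.56 CPM in IL-4 cells (log2 fold change 5.55 ± 0.28, adjusted p = 6.00e-07). Besides Il4ra, the other receptor chains of IL-4, named after their values were seen, rose in LPS+IFNγ cells. Il2rg, the common gamma chain, had 552 and 421 CPM in LPS+IFNγ cells, against 50.4 and 27.1 CPM in IL-4 cells (log2 fold change 3.65 ± 0.43, adjusted p = 8.03e-05). Il13ra1 had 94.0 and 74.7 CPM in LPS+IFNγ cells, against 7.21 and 10.4 CPM in IL-4 cells (log2 fold change 3.25 ± 0.19, adjusted p = 1.43e-06).

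Of 31 transcription factors tied to polarisation, 13 rose and 11 fell, but 10 rose and 15 fell under total-count scaling. The direction of the list thus depends on the scaling. Pparg, a lipid-sensing nuclear receptor, had 2.43 and 2.23 CPM in LPS+IFNγ cells, against 97.8 and 67.3 CPM in IL-4 cells (log2 fold change -5.14 ± 0.24, adjusted p = 4.49e-07). Epas1 (HIF-2α) had 3.38 and 4.94 CPM in LPS+IFNγ cells, against 37.5 and 73.1 CPM in IL-4 cells (log2 fold change -3.75 ± 0.73, adjusted p = 0.00184). Hif1a, its paralog that drives glycolysis, was named after its values were seen and had 599 and 1033 CPM in LPS+IFNγ cells, against 109 and 94.6 CPM in IL-4 cells (log2 fold change 3.0 ± 0.23, adjusted p = 4.98e-06).

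**Figure D3:**
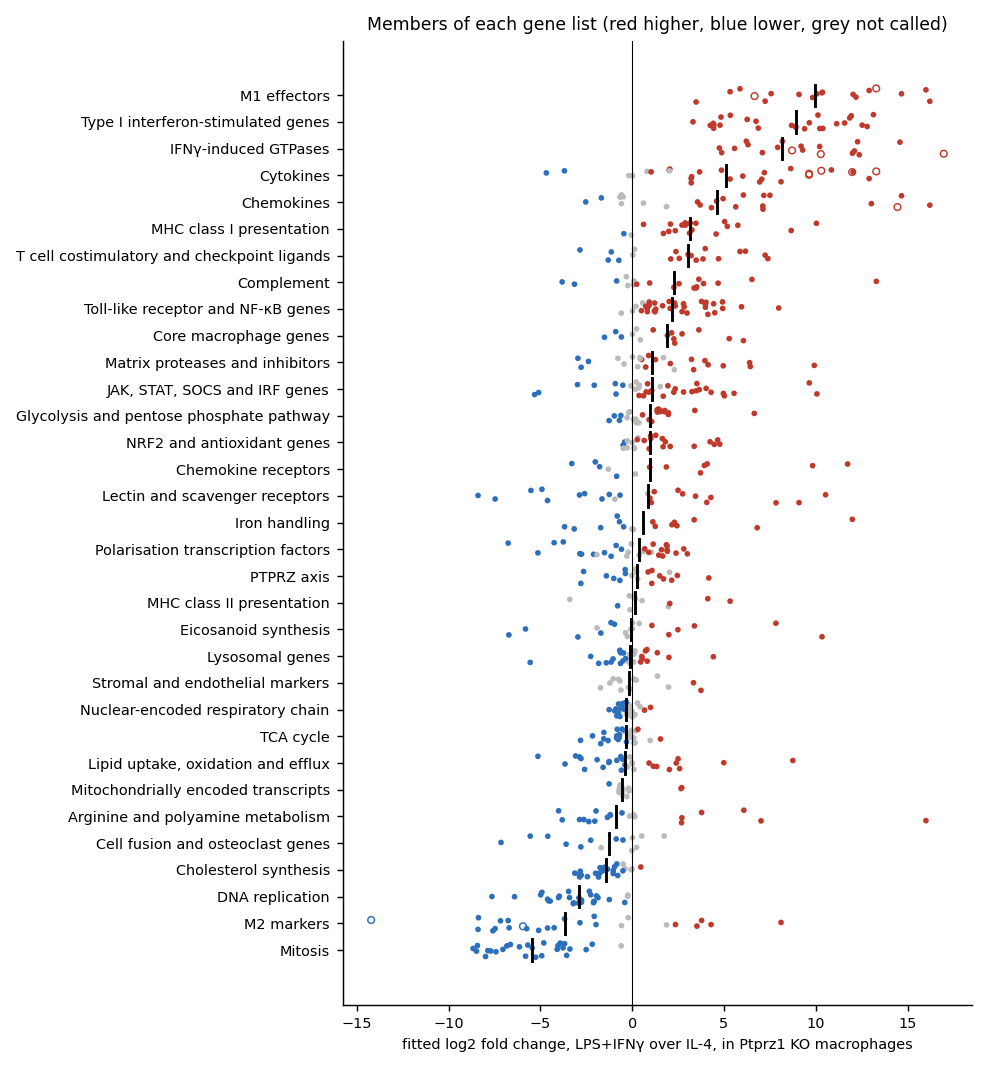
Fitted log2 fold change of LPS+IFNγ over IL-4 for each tested member of the lists with at least 12 tested members (dots; red called higher, blue called lower, grey not called; open circles have no count in either library of a state), with the list's median as a bar, open circles entering it at their bound. Medians run from 9.94 for M1 effectors to -5.45 for mitosis.

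Genes of class I antigen presentation rose, and few of class II were called. Of 21 MHC class I genes, 19 rose and 1 fell. Tap1, the peptide transporter, had 970.2 and 1022 CPM in LPS+IFNγ cells, against 29.5 and 25.5 CPM in IL-4 cells (log2 fold change 5.18 ± 0.31, adjusted p = 1.51e-06). H2-Q4, a non-classical class I gene whose reads may be shared with its neighbours, had 1080.2 and 1218 CPM in LPS+IFNγ cells, against 20.5 and 22.1 CPM in IL-4 cells (log2 fold change 5.75 ± 0.32, adjusted p = 9.61e-07). H2-Q6 had 1188 and 1572 CPM in LPS+IFNγ cells, against 0.984 and 1.61 CPM in IL-4 cells (log2 fold change 10.03 ± 0.50, adjusted p = 5.75e-07), and its reads may be shared likewise. The fallen member was the chaperone Calr, at 746 and 903 CPM in LPS+IFNγ cells, against 1156 and 1105 CPM in IL-4 cells (log2 fold change -0.46 ± 0.13, adjusted p = 0.0118). Its change is smaller than the shift between scalings, and the call was lost when only the 6 KO libraries (adjusted p = 0.106) or the 4 KO libraries of the comparison were fitted (adjusted p = 0.136). Of 12 class II genes, 3 rose and 1 fell, with 3 and 3 under total-count scaling. Cd74, the invariant chain, had 289 and 173 CPM in LPS+IFNγ cells, against 249 and 70.4 CPM in IL-4 cells and was not called (log2 fold change 0.54 ± 0.61, adjusted p = 0.482). It was higher in library 1 than in library 2 of either state. Ifi30, a lysosomal thiol reductase, had 154 and 105 CPM in LPS+IFNγ cells, against 259 and 191 CPM in IL-4 cells (log2 fold change -0.79 ± 0.19, adjusted p = 0.00658), a call lost without IL-4 library 1 (log2 fold change -0.56, adjusted p = 0.0530).

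Costimulatory and checkpoint ligands rose in 13 of 19 genes and fell in 4 (2 without LPS+IFNγ library 2). Cd86 had 125 and 227 CPM in LPS+IFNγ cells, against 0.710 and 1.56 CPM in IL-4 cells (log2 fold change 7.24 ± 0.46, adjusted p = 1.96e-06). Cd40 had 191 and 195 CPM in LPS+IFNγ cells, against 3.77 and 2.84 CPM in IL-4 cells (log2 fold change 5.87 ± 0.21, adjusted p = 1.54e-07). Both proteins give T cells or receive from them costimulatory signals. The inhibitory ligand Cd274 (PD-L1) rose as well, at 3965 and 5186 CPM in LPS+IFNγ cells, against 69.6 and 57.8 CPM in IL-4 cells (log2 fold change 6.17 ± 0.21, adjusted p = 1.42e-07). Pdcd1lg2 (PD-L2), given above, fell. Slamf1 had 20.1 and 42.8 CPM in LPS+IFNγ cells, against 0.383 and 0 CPM in IL-4 cells (log2 fold change 7.39 ± 0.74, adjusted p = 2.80e-05). Without IL-4 library 1 the fitted log2 fold change was 12.13, but the remaining IL-4 library held no count, so its size is not determined. Cd200r1, an inhibitory receptor of macrophages, had 27.5 and 46.3 CPM in LPS+IFNγ cells, against 97.7 and 84.2 CPM in IL-4 cells (log2 fold change -1.31 ± 0.20, adjusted p = 4.39e-04).

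Glycolysis genes mostly rose, while those of the Krebs cycle mostly fell. Of 26 genes of glycolysis and the pentose phosphate pathway, 15 rose and 4 fell. Pfkfb3, which makes the activator of phosphofructokinase, had 2716 and 3899.99 CPM in LPS+IFNγ cells, against 29.3 and 36.6 CPM in IL-4 cells (log2 fold change 6.65 ± 0.25, adjusted p = 1.58e-07). Slc16a3, the lactate exporter, had 371 and 239.6 CPM in LPS+IFNγ cells, against 30.3 and 27.2 CPM in IL-4 cells (log2 fold change 3.41 ± 0.27, adjusted p = 6.54e-06). Slc2a1, the glucose transporter GLUT1, had 350.3 and 414 CPM in LPS+IFNγ cells, against 79.8 and 115 CPM in IL-4 cells (log2 fold change 1.97 ± 0.28, adjusted p = 2.86e-04). Pfkl, the liver-type phosphofructokinase, had 268 and 243 CPM in LPS+IFNγ cells, against 57.3 and 72.8 CPM in IL-4 cells (log2 fold change 1.97 ± 0.20, adjusted p = 3.15e-05). The genes that fell included transketolase of the pentose branch, Tkt, at 229.9 and 301 CPM in LPS+IFNγ cells, against 757 and 514 CPM in IL-4 cells (log2 fold change -1.26 ± 0.20, adjusted p = 4.85e-04). Pdk1, an inhibitory kinase of pyruvate dehydrogenase, fell as well, at 62.9 and 41.8 CPM in LPS+IFNγ cells, against 112 and 94.7 CPM in IL-4 cells (log2 fold change -0.97 ± 0.18, adjusted p = 0.00115).

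Of 28 genes of the Krebs cycle and its feeders, 15 fell and 2 rose, beside 28.1% and 26.7% of all tested genes. The isocitrate dehydrogenase gene Idh1 had 82.7 and 65.1 CPM in LPS+IFNγ cells, against 377 and 286 CPM in IL-4 cells (log2 fold change -2.16 ± 0.16, adjusted p = 4.42e-06). Idh2 had 10.1 and 12.3 CPM in LPS+IFNγ cells, against 77.1 and 79.8 CPM in IL-4 cells (log2 fold change -2.82 ± 0.14, adjusted p = 5.13e-07). Idh3a had 16.7 and 18.1 CPM in LPS+IFNγ cells, against 55.4 and 58.9 CPM in IL-4 cells (log2 fold change -1.72 ± 0.16, adjusted p = 1.51e-05). All 3 encode enzymes that oxidise isocitrate, and in all 3 the LPS+IFNγ libraries lay below both IL-4 libraries. Fh1, fumarase, had 15.4 and 17.4 CPM in LPS+IFNγ cells, against 49.0 and 47.1 CPM in IL-4 cells (log2 fold change -1.55 ± 0.11, adjusted p = 3.30e-06). Pyruvate carboxylase, Pcx, rose to 7.29 and 7.07 CPM in LPS+IFNγ cells, against 3.01 and 1.94 CPM in IL-4 cells (log2 fold change 1.54 ± 0.37, adjusted p = 0.00588). Of 31 nuclear-encoded respiratory chain genes, 14 fell (9 without LPS+IFNγ library 1) and 2 rose, and none passed the 2-fold test in either direction. Ndufa4, named for complex I and found in complex IV, had 43.4 and 32.1 CPM in LPS+IFNγ cells, against 84.0 and 97.2 CPM in IL-4 cells (log2 fold change -1.26 ± 0.14, adjusted p = 6.85e-05). Cytochrome c, Cycs, rose to 78.0 and 114 CPM in LPS+IFNγ cells, against 49.3 and 46.9 CPM in IL-4 cells (log2 fold change 1.0 ± 0.17, adjusted p = 7.66e-04). The median of that list, -0.32, and that of the Krebs cycle list, -0.36, are smaller in size than the shift between scalings, and 24 of 28 and 26 of 31 fell under total-count scaling.

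Of 15 transcripts of the mitochondrial genome, 2 rose and 1 fell, but 2 rose and 8 fell under total-count scaling. The ribosomal RNAs rose, most in LPS+IFNγ library 2. mt-Rnr1 had 359 and 934 CPM in LPS+IFNγ cells, against 119 and 86.2 CPM in IL-4 cells (log2 fold change 2.66 ± 0.37, adjusted p = 2.49e-04). mt-Rnr2 had 1253 and 5591 CPM in LPS+IFNγ cells, against 479 and 575 CPM in IL-4 cells (log2 fold change 2.70 ± 0.53, adjusted p = 0.00195), and without LPS+IFNγ library 2 the difference was smaller (log2 fold change 1.25, adjusted p = 3.41e-04). The part of leftover ribosomal RNA in this difference was not tested. mt-Nd1 had 408 and 614 CPM in LPS+IFNγ cells, against 1636 and 806 CPM in IL-4 cells (log2 fold change -1.26 ± 0.33, adjusted p = 0.00895), a call lost without LPS+IFNγ library 1 (log2 fold change -1.0, adjusted p = 0.0673) or IL-4 library 1 (log2 fold change -0.66, adjusted p = 0.0778). Without IL-4 library 2, 11 of the 15 were called lower, and without IL-4 library 1, 5 were called higher.

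Transcripts of sterol synthesis were mostly lower in LPS+IFNγ cells. Of 24 cholesterol synthesis genes, 19 fell and 1 rose, with a median log2 fold change of -1.43. Squalene epoxidase, Sqle, had 5.81 and 7.07 CPM in LPS+IFNγ cells, against 36.2 and 57.0 CPM in IL-4 cells (log2 fold change -2.87 ± 0.34, adjusted p = 8.54e-05). The isomerase gene Idi1 had 10.6 and 6.10 CPM in LPS+IFNγ cells, against 50.4 and 76.1 CPM in IL-4 cells (log2 fold change -2.90 ± 0.30, adjusted p = 3.14e-05). The reductase gene Dhcr7, of the last step, had 6.82 and 7.84 CPM in LPS+IFNγ cells, against 43.3 and 60.4 CPM in IL-4 cells (log2 fold change -2.83 ± 0.20, adjusted p = 3.62e-06). In these 3 genes no library of a state overlapped one of the other.

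Lipid handling was mixed, with 9 of 29 higher and 15 lower. Lipoprotein lipase, Lpl, had 559 and 885 CPM in LPS+IFNγ cells, against 9727 and 8537 CPM in IL-4 cells (log2 fold change -3.66 ± 0.23, adjusted p = 1.87e-06). Acsl1, which activates long-chain fatty acids, had 1045 and 1446 CPM in LPS+IFNγ cells, against 39.2 and 39.2 CPM in IL-4 cells (log2 fold change 4.99 ± 0.17, adjusted p = 1.42e-07). Ch25h, which makes the antiviral oxysterol 25-hydroxycholesterol, had 10.5 and 214 CPM in LPS+IFNγ cells, against 0.109 and 0.379 CPM in IL-4 cells (log2 fold change 8.75 ± 1.54, adjusted p = 0.00140). Its LPS+IFNγ libraries lay far apart, and without library 2 the difference was smaller (log2 fold change 5.36, adjusted p = 3.61e-04). Apoe, which carries cholesterol out of the cell, was not called, at 11420 and 11480.1 CPM in LPS+IFNγ cells, against 9325 and 12101 CPM in IL-4 cells (adjusted p = 0.804).

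Of 19 eicosanoid genes, 6 rose and 6 fell, and 5 rose and 9 fell under total-count scaling. Ptges, the inducible prostaglandin E synthase, had 477 and 454 CPM in LPS+IFNγ cells, against 1.75 and 2.32 CPM in IL-4 cells (log2 fold change 7.83 ± 0.38, adjusted p = 5.24e-07). The constitutive cyclooxygenase Ptgs1 had 5.06 and 2.23 CPM in LPS+IFNγ cells, against 258 and 167 CPM in IL-4 cells (log2 fold change -5.81 ± 0.40, adjusted p = 2.92e-06). Hpgd, which breaks prostaglandins down, had 0 and 0.0968 CPM in LPS+IFNγ cells, against 4.32 and 5.54 CPM in IL-4 cells (125-fold lower, 95% counting interval 22.2 to 4963, adjusted p = 7.15e-05). Pla2g7, the secreted hydrolase of platelet-activating factor, had 2700.3 and 2531 CPM in LPS+IFNγ cells, against 228 and 272 CPM in IL-4 cells (log2 fold change 3.39 ± 0.13, adjusted p = 1.98e-07).

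Transcripts of cell division were lower in LPS+IFNγ cells. Of 27 mitosis genes 26 fell and 0 rose, with a median log2 fold change of -5.45, and of 28 DNA replication genes 26 fell and 0 rose, with a median of -2.92. Cyclin A2, Ccna2, had 0 and 0.290 CPM in LPS+IFNγ cells, against 65.1 and 38.5 CPM in IL-4 cells (426-fold lower, 95% counting interval 146 to 2068, adjusted p = 5.32e-06), beside 134 and 76.2 CPM in control cells. Cenpf, of the outer kinetochore, had 0 and 0.194 CPM in LPS+IFNγ cells, against 28.3 and 16.0 CPM in IL-4 cells (273-fold lower, 95% counting interval 75.3 to 2255, adjusted p = 1.21e-05). Ube2c, a ubiquitin-conjugating enzyme that acts at mitotic exit, had 0 and 0.0968 CPM in LPS+IFNγ cells, against 21.5 and 10.9 CPM in IL-4 cells (398-fold lower, 95% counting interval 71.2 to 15745, adjusted p = 6.21e-05). In both LPS+IFNγ libraries these genes were at or near 0, and IL-4 library 1 held more of each than IL-4 library 2. Rrm2, which supplies deoxynucleotides, had 0.135 and 0.581 CPM in LPS+IFNγ cells, against 78.0 and 53.4 CPM in IL-4 cells (log2 fold change -7.64 ± 0.46, adjusted p = 1.48e-06). The replicative polymerase gene Pole had 0.338 and 0.387 CPM in LPS+IFNγ cells, against 32.0 and 30.2 CPM in IL-4 cells (log2 fold change -6.41 ± 0.17, adjusted p = 1.38e-07). Pola1, which primes replication, had 1.28 and 1.5 CPM in LPS+IFNγ cells, against 39.0 and 43.6 CPM in IL-4 cells (log2 fold change -4.92 ± 0.15, adjusted p = 1.38e-07). The origin-licensing factor Cdc6 had 0.810 and 0.0968 CPM in LPS+IFNγ cells, against 15.3 and 17.2 CPM in IL-4 cells (log2 fold change -4.99 ± 0.44, adjusted p = 1.39e-05). The spindle gene Tpx2 was not called, at 16.9 and 49.3 CPM in LPS+IFNγ cells, against 61.1 and 38.4 CPM in IL-4 cells (adjusted p = 0.245), and neither were the replication genes Ccne1 and Rfc3 (adjusted p = 0.258 and 0.356). Summed mitosis transcripts were 60.4 and 90.5 CPM in LPS+IFNγ cells, 1363 and 754 CPM in IL-4 cells and 2483 and 1459.6 CPM in control cells. In bulk RNA, fewer dividing cells and less of these transcripts per cell cannot be told apart.

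The catalytic subunit of the phagocyte oxidase, Cybb, had 5201 and 5149.9 CPM in LPS+IFNγ cells, against 462 and 365 CPM in IL-4 cells (log2 fold change 3.65 ± 0.19, adjusted p = 7.00e-07). Its cytosolic partner Ncf1 had 649 and 621 CPM in LPS+IFNγ cells, against 185 and 153 CPM in IL-4 cells (log2 fold change 1.91 ± 0.14, adjusted p = 4.38e-06). Rac2, a small GTPase of the same complex, had 1102 and 1194 CPM in LPS+IFNγ cells, against 244 and 194 CPM in IL-4 cells (log2 fold change 2.39 ± 0.19, adjusted p = 6.54e-06). In the oxidase list 5 of 7 rose and 0 fell. Under total-count scaling 3 rose and 1 fell, and 3 rose without LPS+IFNγ library 2. The call of Ncf4, at 128 and 147 CPM in LPS+IFNγ cells, against 109 and 85.3 CPM in IL-4 cells (log2 fold change 0.50 ± 0.13, adjusted p = 0.0100), was lost without LPS+IFNγ library 2 (log2 fold change 0.40, adjusted p = 0.0606) or IL-4 library 2 (log2 fold change 0.32, adjusted p = 0.0655) and under total-count scaling.

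Of 24 NRF2 and antioxidant genes, 15 rose and 2 fell. The mitochondrial superoxide dismutase Sod2 had 1563 and 2660.3 CPM in LPS+IFNγ cells, against 73.7 and 81.1 CPM in IL-4 cells (log2 fold change 4.77 ± 0.24, adjusted p = 6.19e-07). Prdx5, peroxiredoxin 5, had 2560.3 and 3759 CPM in LPS+IFNγ cells, against 138 and 196 CPM in IL-4 cells (log2 fold change 4.24 ± 0.24, adjusted p = 1.20e-06). The cystine importer Slc7a11 had 459.7 and 736 CPM in LPS+IFNγ cells, against 20.8 and 26.7 CPM in IL-4 cells (log2 fold change 4.65 ± 0.31, adjusted p = 2.48e-06). Heme oxygenase 1, Hmox1, which breaks down heme, had 6769 and 4793 CPM in LPS+IFNγ cells, against 462 and 654 CPM in IL-4 cells (log2 fold change 3.37 ± 0.29, adjusted p = 1.18e-05).

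Iron genes moved in both directions, with 8 of 16 higher and 6 lower. Lcn2, which withholds bacterial siderophores, had 1862 and 2765 CPM in LPS+IFNγ cells, against 0.874 and 0.284 CPM in IL-4 cells (log2 fold change 11.99 ± 1.28, adjusted p = 4.13e-05). Ceruloplasmin, Cp, had 370.3 and 405 CPM in LPS+IFNγ cells, against 3.61 and 3.31 CPM in IL-4 cells (log2 fold change 6.81 ± 0.58, adjusted p = 1.09e-05). Tfrc, given above, fell, and so did the endosomal iron reductase gene Steap3, at 8.37 and 8.81 CPM in LPS+IFNγ cells, against 77.3 and 76.1 CPM in IL-4 cells (log2 fold change -3.16 ± 0.16, adjusted p = 5.92e-07). The ferritin chains, named after their values were seen, split. The heavy chain Fth1 had 43854 and 39816 CPM in LPS+IFNγ cells, against 7923 and 10766 CPM in IL-4 cells (log2 fold change 2.16 ± 0.20, adjusted p = 1.84e-05), whereas the light chain Ftl1 had 9193 and 8637 CPM in LPS+IFNγ cells, against 12056 and 12625 CPM in IL-4 cells (log2 fold change -0.47 ± 0.14, adjusted p = 0.0171), a call lost without IL-4 library 2 (log2 fold change -0.44, adjusted p = 0.0706). The iron exporter Slc40a1 was not called, at 91.9 and 21.3 CPM in LPS+IFNγ cells, against 56.6 and 52.0 CPM in IL-4 cells (adjusted p = 0.916), and 232 and 169 CPM in control cells.

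Complement genes rose in 12 of 19 cases and fell in 3. Under total-count scaling 11 rose and 8 fell, and 8 rose without IL-4 library 1. Cfb, factor B of the alternative pathway, had 2842 and 2936 CPM in LPS+IFNγ cells, against 0.437 and 0.142 CPM in IL-4 cells (log2 fold change 13.30 ± 1.55, adjusted p = 7.55e-05). C3, the hub of all complement pathways, had 4229.5 and 3351 CPM in LPS+IFNγ cells, against 64.2 and 18.6 CPM in IL-4 cells (log2 fold change 6.52 ± 0.97, adjusted p = 3.44e-04). Itgax, the complement receptor chain CD11c, had 35.0 and 55.5 CPM in LPS+IFNγ cells, against 661 and 612 CPM in IL-4 cells (log2 fold change -3.82 ± 0.33, adjusted p = 1.10e-05). C1qb, a chain of C1q, was not called, at 996 and 884 CPM in LPS+IFNγ cells, against 917 and 847 CPM in IL-4 cells (adjusted p = 0.607).

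Matrix genes rose in 13 of 24 cases and fell in 3. The membrane collagenase Mmp14 had 459 and 763 CPM in LPS+IFNγ cells, against 8.42 and 30.7 CPM in IL-4 cells (log2 fold change 4.96 ± 0.63, adjusted p = 1.26e-04). Serpinb2, an inhibitor of plasminogen activators, had 14.9 and 48.0 CPM in LPS+IFNγ cells, against 0.0547 and 0 CPM in IL-4 cells (1123-fold higher, 95% counting interval 201 to 44401, adjusted p = 2.10e-04). Macrophage elastase, Mmp12, had 463 and 959.6 CPM in LPS+IFNγ cells, against 4612 and 5190.2 CPM in IL-4 cells (log2 fold change -2.78 ± 0.45, adjusted p = 5.96e-04). Plau, the urokinase gene, had 20.7 and 27.4 CPM in LPS+IFNγ cells, against 173 and 199 CPM in IL-4 cells (log2 fold change -2.96 ± 0.28, adjusted p = 2.08e-05). Of 30 lysosomal genes, 9 rose and 13 fell, but 5 rose and 18 fell under total-count scaling. Cathepsin C, Ctsc, had 1923 and 2013 CPM in LPS+IFNγ cells, against 98.4 and 85.8 CPM in IL-4 cells (log2 fold change 4.42 ± 0.26, adjusted p = 1.30e-06). Cathepsin B, Ctsb, was not called, at 11342 and 9361 CPM in LPS+IFNγ cells, against 11722 and 10633 CPM in IL-4 cells (adjusted p = 0.559).

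Genes of macrophage fusion were lower in LPS+IFNγ than in IL-4 cells. Of 14 cell fusion and osteoclast genes, 8 fell and 0 rose in LPS+IFNγ relative to IL-4. Ocstamp, a fusion protein of osteoclasts and giant cells, had 0.270 and 0.387 CPM in LPS+IFNγ cells, against 71.6 and 21.0 CPM in IL-4 cells (log2 fold change -7.15 ± 0.74, adjusted p = 3.52e-05). Dcstamp, its partner, had 0.540 and 0.484 CPM in LPS+IFNγ cells, against 21.0 and 4.45 CPM in IL-4 cells (log2 fold change -4.60 ± 0.78, adjusted p = 7.92e-04). IL-4 library 1 held more of both than IL-4 library 2, and both IL-4 libraries lay above both LPS+IFNγ libraries. The proton pump subunit Atp6v0d2 had 8.64 and 27.9 CPM in LPS+IFNγ cells, against 973 and 721 CPM in IL-4 cells (log2 fold change -5.56 ± 0.58, adjusted p = 3.54e-05). The tetraspanin gene Cd9 had 41.3 and 64.5 CPM in LPS+IFNγ cells, against 619 and 661 CPM in IL-4 cells (log2 fold change -3.60 ± 0.25, adjusted p = 3.08e-06). The integrin chain Itgb3 had 6.55 and 2.81 CPM in LPS+IFNγ cells, against 36.6 and 30.2 CPM in IL-4 cells (log2 fold change -2.80 ± 0.30, adjusted p = 4.01e-05).

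Lectin and scavenger receptors divided evenly, with 11 of 23 higher and 10 lower under TMM scaling, and 9 and 11 under total-count scaling. Clec4e, the Mincle receptor for mycobacterial lipid, had 831 and 1389 CPM in LPS+IFNγ cells, against 1.09 and 0.426 CPM in IL-4 cells (log2 fold change 10.53 ± 0.90, adjusted p = 1.05e-05). Clec4n (Dectin-2), which binds fungal mannans, had 81.4 and 25.0 CPM in LPS+IFNγ cells, against 0.109 and 0.331 CPM in IL-4 cells (log2 fold change 7.83 ± 1.13, adjusted p = 2.95e-04). Mrc1 and Mgl2, given above, fell.

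Around the deleted phosphatase, 20 of 30 listed genes passed the low-count filter, and 8 rose and 7 fell. The ligand genes Ptn and Mdk did not pass. Ptn had 5 and 9 counts in LPS+IFNγ libraries, 4 and 2 in IL-4 libraries and 1 and 5 in control libraries. Mdk had 7 and 2 counts in LPS+IFNγ libraries, 9 and 6 in IL-4 libraries and 5 and 1 in control libraries. Sdc3, a syndecan that also binds pleiotrophin, had 2595 and 1869 CPM in LPS+IFNγ cells, against 475 and 339 CPM in IL-4 cells (log2 fold change 2.46 ± 0.29, adjusted p = 7.73e-05). Nrp1, a further receptor of that ligand, had 46.0 and 43.4 CPM in LPS+IFNγ cells, against 255 and 307 CPM in IL-4 cells (log2 fold change -2.65 ± 0.14, adjusted p = 7.13e-07). Itgb3 is given above. Met, the receptor of hepatocyte growth factor, had 83.2 and 93.6 CPM in LPS+IFNγ cells, against 4.37 and 5.4 CPM in IL-4 cells (log2 fold change 4.17 ± 0.16, adjusted p = 1.75e-07), beside 2.16 and 2.49 CPM in control cells. In all, 15 of the 20 were called, beside 54.9% of all tested genes, and under total-count scaling 8 rose and 9 fell.

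Markers of other cell types were checked in the same libraries. Of 14 stromal and endothelial genes tested, 2 were higher (Cdh5 and Kdr, named after their values were seen, with Kdr at log2 fold change 6.28 without IL-4 library 2 and 3.34 with it) and 0 lower. Their summed level was higher in library 2 than in library 1 of each group, WT included. In KO it was 429 and 980.5 CPM in LPS+IFNγ, 497 and 1725 CPM in IL-4 and 477 and 1143 CPM in control cells. In WT it was 118 and 322 CPM in LPS+IFNγ, 92.7 and 351 CPM in IL-4 and 101 and 511 CPM in control cells. Col1a1, the collagen of fibroblasts, had 102 and 283 CPM in LPS+IFNγ cells, against 137 and 651 CPM in IL-4 cells and was not called (adjusted p = 0.440). Among granulocyte genes S100a8 had 38.0 and 220.3 CPM in LPS+IFNγ cells, against 1.64 and 1.42 CPM in IL-4 cells (log2 fold change 6.39 ± 0.89, adjusted p = 2.27e-04). Of the 13 genes of that list 7 were tested, of which 3 rose and 0 fell. Those that rose were S100a8, Csf3r and Mmp8, the last 2 named after their values were seen. The other 4 were not called, but all had negative log2 fold changes, down to -5.09, and the median of the 7 was -1.68. Of the 6 under the low-count filter, Ly6g and Elane had 0 counts in all 6 KO libraries, and no other had more than 8 counts in any of them. The list summed to 423 and 709 CPM in LPS+IFNγ cells, 109 and 35.9 CPM in IL-4 cells and 73.6 and 41.3 CPM in control cells. Of 3 B cell genes, Ighm alone was called, at 2.30 and 0.0968 CPM in LPS+IFNγ cells, against 9.56 and 9.90 CPM in IL-4 cells (log2 fold change -2.87 ± 1.07, adjusted p = 0.0450). Its call was lost without LPS+IFNγ library 2 (log2 fold change -2.08, adjusted p = 0.185), IL-4 library 1 (log2 fold change -2.88, adjusted p = 0.0911), IL-4 library 2 (log2 fold change -2.84, adjusted p = 0.102), control library 1 (adjusted p = 0.0568) or control library 2 (adjusted p = 0.0584), and the difference was larger without LPS+IFNγ library 1 (log2 fold change -6.56, adjusted p = 0.0438). Of 3 T and NK cell genes, 1 fell (Il7r). Of 4 dendritic cell genes, 2 rose (Bst2 and Ccr7, both also known from activated macrophages) and 1 fell (Batf3), and 2 fell under total-count scaling. The call of Ccr7 was lost without LPS+IFNγ library 1 (log2 fold change 2.5, adjusted p = 0.198) or IL-4 library 2 (log2 fold change 3.05, adjusted p = 0.0948), and its difference was larger without IL-4 library 1 (log2 fold change 8.38, adjusted p = 0.0152). None of 2 mast cell and basophil genes or 3 erythroid and megakaryocyte genes was called. The part of other cells in the differences above was not tested.

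Genes whose libraries disagreed most within a state are given as measured. Among called genes with a mean of at least 20 CPM in the state, those with the widest gap between LPS+IFNγ libraries were Il6, Il19 and Ch25h, all higher in library 2. Under the same limit those of IL-4 cells were Mamdc2, Thbs1 and Map4k1. Mamdc2, of the extracellular matrix, had 0.675 and 5.81 CPM in LPS+IFNγ cells, against 35.6 and 177 CPM in IL-4 cells (log2 fold change -5.16 ± 1.15, adjusted p = 0.00400). Thbs1, which encodes thrombospondin 1, had 2204 and 3063 CPM in LPS+IFNγ cells, against 58.6 and 279 CPM in IL-4 cells (log2 fold change 3.96 ± 1.08, adjusted p = 0.0116), and its call was lost without IL-4 library 1 (log2 fold change 3.23, adjusted p = 0.0646). Map4k1, a kinase gene of blood cells, had 2.30 and 1.74 CPM in LPS+IFNγ cells, against 35.7 and 8.71 CPM in IL-4 cells (log2 fold change -3.43 ± 0.66, adjusted p = 0.00175), and without IL-4 library 1 the difference was smaller (log2 fold change -2.09, adjusted p = 0.00488). Mamdc2 and Thbs1 were higher in IL-4 library 2, as the summed stromal markers were, and a part of those cells in the difference was not tested.

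More genes were called against control in LPS+IFNγ cells than in IL-4 cells. Against KO control cells, 3676 genes rose (27.2%) and 3527 fell (26.1%) in LPS+IFNγ cells, 53.3% in all, and 476 rose (3.52%) and 452 fell (3.34%) in IL-4 cells, 6.86% in all. Both comparisons use the same 2 control libraries, so they are only set side by side. The IL-4 count depended on the fit, at 303 genes without control library 1, 49 genes when only the KO libraries were fitted and 1681 with DESeq2. M2 markers had a median log2 fold change over control of 0.50 in LPS+IFNγ cells and 3.60 in IL-4 cells. Of the 25, 9 rose in LPS+IFNγ cells and 17 rose in IL-4 cells. M1 effectors had medians of 7.59 in LPS+IFNγ cells and -1.30 in IL-4 cells, and interferon-stimulated genes of 6.47 in LPS+IFNγ cells and -2.42 in IL-4 cells. In IL-4 cells 2 of 18 M1 effectors and 6 of 26 interferon-stimulated genes were called lower than control, beside 3.34% of all tested genes. The interferon-stimulated list summed to 1422 and 485 CPM in the uneven control libraries, against 401 and 377 CPM in IL-4 cells. In WT it summed to 489 and 502 CPM in control and 398 and 496 CPM in IL-4 cells, which overlap. Cholesterol synthesis genes fell in 18 of 24 cases in LPS+IFNγ cells and in 1 in IL-4 cells. Mitosis genes had medians of -6.46 in LPS+IFNγ cells and -0.89 in IL-4 cells, and 27 of 27 fell in LPS+IFNγ cells and 1 in IL-4 cells.

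**Figure D4:**
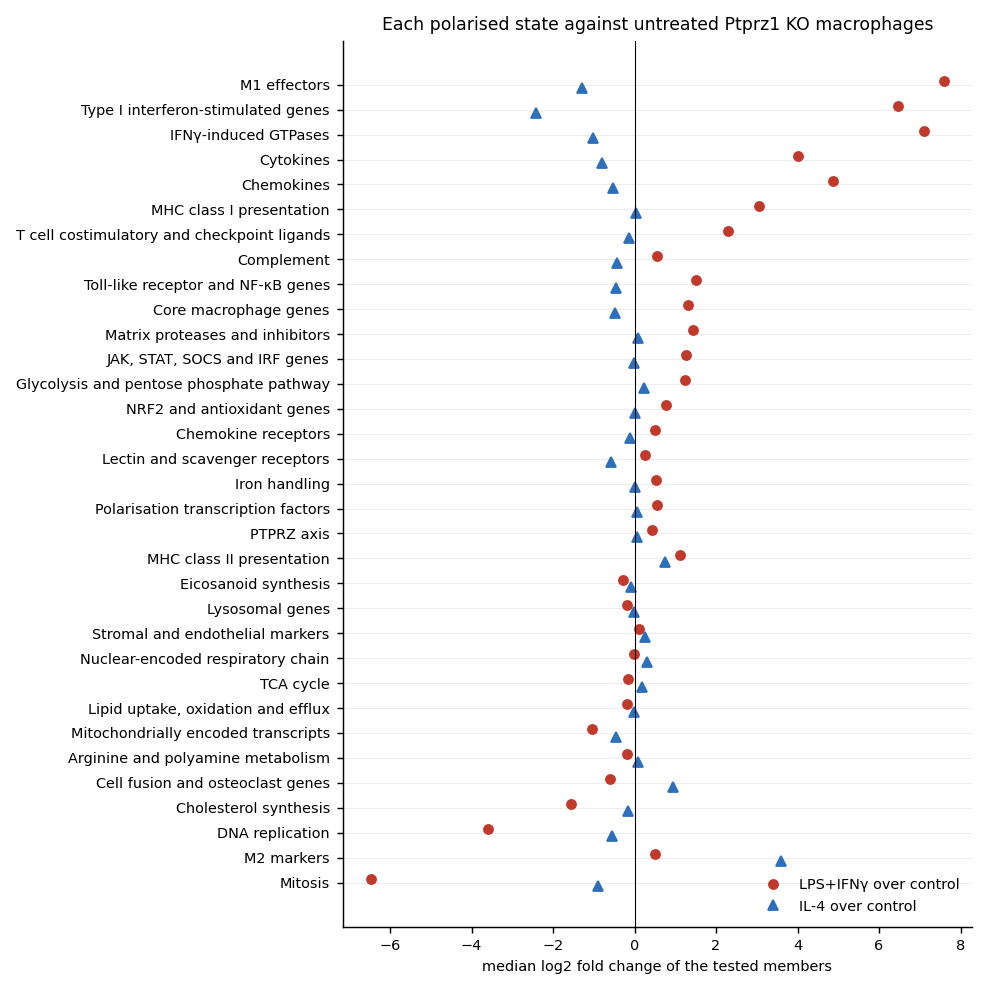
Median log2 fold change of each list's tested members over KO control cells, for LPS+IFNγ (red circles) and IL-4 (blue triangles), in the order of the lists' medians in the direct comparison; both use the same control libraries. LPS+IFNγ medians spread from -6.46 to 7.59, and IL-4 medians from -2.42 to 3.60.

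The comparison was then set beside WT macrophages, which share no library with it. In WT, 3794 genes rose (28.1%) and 3806 fell (28.1%), 56.2% in all. Of the genes that rose in KO, 3195 also rose in WT, which is 88.4% of the KO calls and 84.2% of the WT calls, and of those that fell 3238 also fell, 85.1% of the KO calls and 85.1% of the WT calls. Across genes, which are not independent replicates, the log2 fold changes of KO and WT had a Pearson r of 0.905. M1 effectors had a median of 9.94 in KO and 9.26 in WT, M2 markers of -3.69 in KO and -3.89 in WT, and mitosis genes of -5.45 in KO and -5.78 in WT. The test of the difference itself, KO minus WT, called 0 genes with edgeR, where 631 had an unadjusted p under 0.05 (evenly spread p-values would give 676), and the smallest adjusted p was 0.673. DESeq2 called 5, among them Met, whose log2 fold change was 4.17 in KO and 3.05 in WT. With edgeR the difference for Met was 1.12 ± 0.20 (adjusted p = 0.881), and DESeq2 gave an adjusted p of 0.0273. Without LPS+IFNγ library 1 of the KO, 78 genes were called in that test. A p that misses the threshold does not show that KO and WT macrophages responded alike. The median SE of a gene's log2 fold change was 0.21 in KO and 0.21 in WT. Both come from the same fit, in which all 6 groups share a gene's spread. Their likeness therefore does not show that KO and WT were measured equally well. Libraries of the same group differed by a median absolute log2 value of 0.30 (LPS+IFNγ) and 0.27 (IL-4) in KO, against 0.14 and 0.15 in WT.

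**Figure D5:**
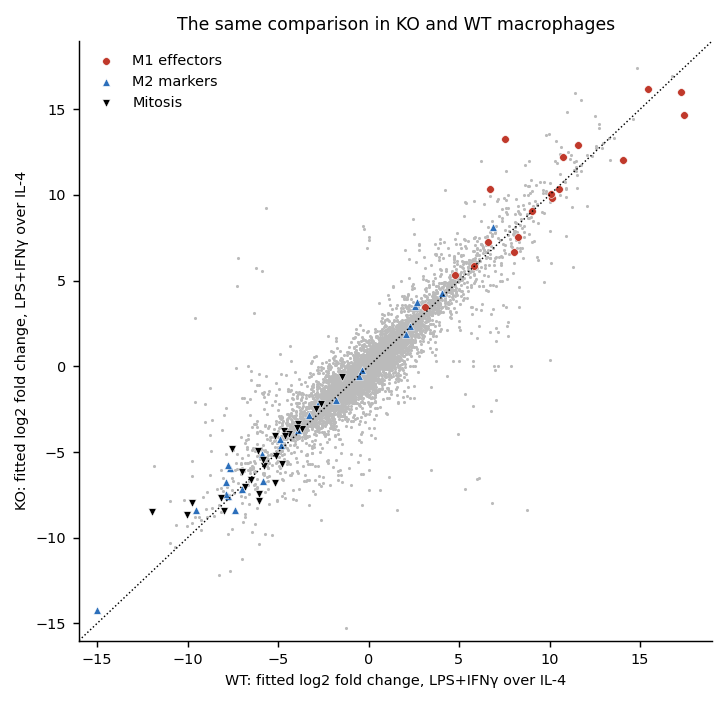
Fitted log2 fold change of LPS+IFNγ over IL-4 in KO (vertical axis) against that in WT (horizontal axis), with each point a gene and the dotted line marking equal values. M1 effectors, M2 markers and mitosis genes lie along the line, and the test of the difference called 0 genes with edgeR.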

How the data were processed

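RNA of 12 BMDM libraries was extracted with the innuPREP RNA Mini Kit 2.0 and libraries were made with NEBNext Ultra II Directional, per the labels' protocols. The deposited table holds estimated counts per gene as whole numbers. The submitters' processing notes name FastQC 0.11.9, Salmon 1.10.2, R 4.4.1, DESeq2 1.45.3 and the build GRCm39, without roles. The sources used here give neither the strand setting nor the annotation, so reads of a gene and its antisense partner may not be told apart. Of 55891 gene IDs in the authors' table, 51425 (92.0%) had a symbol in the reference tables.

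In R 4.3.3, edgeR 4.0.16 was used for all tests, with genes kept by its filter on low counts by group (13525 genes), TMM scaling, a coefficient for each of the 6 groups and a quasi-likelihood F test of LPS+IFNγ against IL-4 in KO. Residual degrees of freedom were 6. The same fit gave the control and WT comparisons and the difference between KO and WT. A second test asked for a change past 2-fold (glmTreat). The code was tested on simulated data with 200 changed genes. Alternatives were other scalings, no filter, DESeq2 1.42.0, fits on fewer libraries, the replicate number as a block and leaving out each library. The counts for control and WT comparisons under these settings, and leaving out control libraries, were added after the data had been seen.

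The 40 gene lists (801 genes, 800 matched, 724 tested) and the comparison itself were chosen with earlier results of these data known, so they give no independent support. Genes named were the 10 largest changes each way with a CPM of at least 20 in the higher state, a set of usual M1 and M2 markers, in each list the 4 called members with the largest change and a CPM of at least 5, the 2 called members with the largest change against the list's direction and the 2 highest uncalled members, and per state the 3 called genes whose libraries differed most. Not all of these are printed. Others are marked as named after their values were seen. Promoters came from RefSeq (GRCm38.p6), 300 bases each, and those of Nos2 and Ccl24 were not used here. Some genes of the lists are not reported here.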

Additional observations from a re-analysis of the deposited data

How the results depend on the processing

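Of 189 genes named with a test, 171 were called, and 160 of these kept call and direction under all settings other than the 2-fold test, which 155 passed. Over all genes, the 2-fold test called 2868 genes between the states (1451 higher, 1417 lower), 3046 in WT, 2679 for LPS+IFNγ against control and 59 for IL-4 against control, and total-count scaling called 2114 higher and 6253 lower. Leaving out 1 library at a time gave 6401 to 7439 calls (3120 to 3798 higher, 3281 to 3779 lower), 5987 to 7378 for LPS+IFNγ against control, 6108 to 7947 in WT, 303 to 1218 for IL-4 against control and 0 to 78 for KO minus WT, where a lone library is assumed to vary like the other groups. IL-4 against control gave 1620 calls without the filter, 1681 with DESeq2 and 49 in the KO libraries alone; fits omitting KO control library 1, KO IL-4 library 2, WT control library 1 or 2 or WT LPS+IFNγ library 1 or 2 gave 303, 424, 486, 495, 554 and 558. KO minus WT gave 3 calls without the filter and 5 with DESeq2, and fits omitting KO LPS+IFNγ library 1, KO IL-4 library 1 or KO LPS+IFNγ library 2 gave 78, 4 or 1. The cause was not tested.

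Libraries share the replicate numbers 1 and 2, but the labels do not say that a number marks a shared animal or day. With 2 pairs of numbers this is a number only. Deviations of same-numbered libraries correlated at 0.195 between LPS+IFNγ and IL-4 in KO. With KO control they correlated at 0.271 for LPS+IFNγ and 0.314 for IL-4. Over all pairs of groups the values ran from 0.046 to 0.337. With a replicate block, 3808 genes rose and 4046 fell between the states, 0 were called for KO minus WT and 1577 for IL-4 against control. All 171 named calls remained, and Tlr4, Csf1, Cd74 and Col1a1 were called as well.

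Under total-count scaling the log2 fold change turned for genes not called in the main fit. It was -0.39 for Apoe, -0.23 for Csf1r, -0.38 for Slc40a1, -0.39 for C1qb and -0.038 for Lyz2. Of these, C1qb was called lower under that scaling (edgeR adjusted p = 0.0472). Ncf4 lost its call there, and Gbp2b with DESeq2. DESeq2 also called Tlr4 and Lyz2. Total-count scaling also called Ccne1, Tgfb1, Klf4, Ctsb, Tpx2, Rfc3 and Tlr4 lower. Without the filter Tlr4 was called lower and Csf1 higher. Csf1 was called higher in the fits on the 6 and the 4 KO libraries too. In the fits on the 6 or 4 KO libraries, Calr, Cd68, Ftl1 and Ncf4 lost their calls in both and Ccr7, Ifi30 and Cx3cr1 in 1. Genes not called in the report whose sign turned were Slc40a1 with the block (-0.17) and, over the fits leaving out 1 library, Odc1 (-0.65 to 0.23), Csf1r (-0.046 to 0.47), Slc40a1 (-1.36 to 0.76), Rfc3 (-0.60 to 0.039), C1qb (-0.0047 to 0.18), Ctsb (-0.26 to 0.023), Ccl22 (-1.79 to 7.82), Tgfb1 (-0.38 to 0.012), Apoe (-0.082 to 0.29), Klf4 (-0.56 to 0.20), Col1a1 (-1.94 to 0.49) and Cd74 (-0.11 to 1.72). The value of 7.82 for Ccl22 came from the fit without IL-4 library 1, where the remaining IL-4 library held no count, so its size is not determined. With 2 libraries per state, their number limits the precision.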
